A study of Mus musculus with 9 samples.

Results

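A set of 10 transcription factors that hold mouse embryonic stem cells (mESCs) in the pluripotent state were followed in wild-type cells and in 2 RING1B mutants. They are 10 genes of the 21679 genes in the series table, and 13 probes of its 30170. The members were chosen by name, as genes with a probe in that table, and all 10 were found. Of these, 3 are core factors (Pou5f1, Sox2, Nanog), 3 are Krüppel-like factors (Klf2, Klf4, Klf5) and 4 are partners of the naive state (Esrrb, Tfcp2l1, Tbx3, Prdm14). Where a gene had more than 1 probe, the probe with the highest mean signal was used for counts and every probe is described.

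RNA came from E14Tg2a mESCs, a male line of strain 129P2/OlaHsd, all grown with 10% fetal bovine serum and 1000 units/ml of leukaemia inhibitory factor (LIF). Each of the 9 samples was hybridised to its own single-colour Agilent array, which reads the abundance of a transcript as the fluorescence of a 60-base probe. The 3 groups of 3 samples were the parental wild type (WT), Ring1B−/− cells (KO) and Ring1B I53A/I53A cells (I53A). In KO both alleles of Rnf2, the gene of RING1B, lack exon 3. By the study's methods they still produce a transcript, which holds a premature stop codon. In I53A both alleles encode RING1B with a substitution that removes its ability to attach ubiquitin to histone H2A. RING1B is the catalytic subunit of Polycomb repressive complex 1, which keeps developmental genes silent. The deletion and the substitution were compared to separate what depends on the protein from what depends on its ligase activity. No second independently derived line of either mutant genotype is described for the arrays, so a difference may belong to a line and not to its mutation, and p-values measure only the spread between the 3 samples of a group, which the study describes as biological replicates without saying how they were grown apart. The arrays lay on 2 slides, 6 on slide 1 (WT 1, WT 2, KO 2, KO 3, I53A 1, I53A 2) and 3 on slide 2 (WT 3, KO 1, I53A 3). Each row of a slide held 1 array of each group. The rows were WT 1, KO 2 and I53A 1, then WT 2, KO 3 and I53A 2, and on slide 2 WT 3, KO 1 and I53A 3. Over genes with a mean log2 signal of at least 7, the deviations of arrays in the same row from their group means were positively correlated in 9 of 9 pairs (r = 0.13 to 0.43). Each group had its own column of the slides, which leaves position on the slide and genotype confounded, and they cannot be told apart. Between 45.5% and 57.5% of the probes of the table were well above background on an array. The Rnf2 probe was 0.57 lower in KO on the log2 scale (adjusted p = 0.288), and where it lies relative to the deleted part was not determined, so it does not check the labels.

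Pluripotency in mESCs rests on a mutually activating network. OCT4 (encoded by Pou5f1) and SOX2 bind neighbouring sites as a pair, often together with NANOG, at their own genes and at those of the other factors. LIF acts through STAT3 on Klf4 and Tfcp2l1, WNT signalling relieves repression of Esrrb, and KLF2, KLF4 and KLF5 act in part redundantly. When FGF and ERK signalling prevails, the naive partners fall first and formative epiblast genes rise, while Pou5f1 is retained.

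RefSeq promoter windows (GRCm38.p6) were matched for 7 of the 10 genes, and neighbouring POU and SOX letters were found in that of Nanog alone. The windows shown are the 250 bases before the gene start of Nanog (chr6:122707239-122707488, plus strand) and of Sox2 (chr3:34649745-34649994, plus strand), printed because these members, whose KO arrays stood on opposite sides of WT, both hold the octamer core TTTGCAT. Capitals mark TTTGCAT and the SOX core ACAATG on either strand.
Nanog: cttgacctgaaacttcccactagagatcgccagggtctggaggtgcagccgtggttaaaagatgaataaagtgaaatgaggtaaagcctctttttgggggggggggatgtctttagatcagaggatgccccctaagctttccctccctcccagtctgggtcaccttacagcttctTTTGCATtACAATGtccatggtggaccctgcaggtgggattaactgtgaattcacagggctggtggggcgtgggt
Sox2: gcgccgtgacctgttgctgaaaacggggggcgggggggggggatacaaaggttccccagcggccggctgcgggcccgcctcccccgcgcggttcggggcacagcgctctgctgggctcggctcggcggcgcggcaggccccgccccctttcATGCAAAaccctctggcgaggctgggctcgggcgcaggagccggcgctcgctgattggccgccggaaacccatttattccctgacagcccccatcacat
In the Nanog window the POU and SOX letters stood next to each other, 75 and 67 bases before the start, and in the Sox2 window the octamer core was on the other strand. The 7 genes had 10 windows. TTTGCAT was found in 3 of these 10 (Sox2 and 2 overlapping windows of Nanog) and in 4.12% of all 32851 windows of the same length. ACAATG was found in 3 of the 10 and in 10.69% of all windows. These 3 were both Nanog windows and a Pou5f1 window (chr17:35508557-35508806) that lies inside the gene. CACCC, the core letters of KLF sites, was found in 5 of the 10, from 4 genes, and in 52.01% of all windows. No member window held TCAAGGTCA (ESRRB), TTCCNGGAA (STAT) or AGGTGTGA (T-box), which 0.39%, 0.91% and 1.12% of all windows held. Both strands were searched, the motifs do not overlap each other in the windows shown, and a match describes letters and not a bound site.

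Each level rests on 1 short stretch of a transcript, so the probes behind the results are shown by 30 of their 60 bases (the last 30, or the 30 around the polyadenylation signal AATAAA, in capitals, where the probe holds it).
Tbx3, chromosome 5: agggacttggttcaaacgaccatgaaaggc
Sox2, chromosome 3: gagaatttgccaatatttttcgaggaaagg
Prdm14, chromosome 1: cttttaccaacagagaaggaaaattatatc
Nanog, brightest probe, chromosome 6: tactctgtgactccaccaggtgaaatatga
Nanog, other probe, chromosome 6: tagtttaaacaaAATAAAacactaatttta
Tfcp2l1, brightest probe, chromosome 1: tgtaaaaagagcagatggcatggaatgttc
Tfcp2l1, other probe, chromosome 1: gtacctgaAATAAAgcatattttgcacttg
AATAAA was present in 3 of the 13 member probes and in 12.13% of all 30170 probes. For Nanog and Tfcp2l1 it was the dimmer probe that held it, and for Esrrb the brightest.

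All levels are log2 of the processed signal after quantile normalisation, on which a step of 1 is a doubling. Levels of different probes are not comparable with each other. RNA was taken from whole cultures, so fewer cells expressing a gene and less RNA per cell cannot be told apart. Of the 10 brightest probes, 9 were well above background on every array that gave a value, and that of Prdm14 on all WT and KO arrays and on 2 of the 3 I53A arrays. A gene was called changed at an adjusted p under 0.05 (limma, Benjamini-Hochberg over 30170 probes) and a change over 2-fold. In KO against WT, 1 member rose (Tbx3) and 1 fell (Sox2), 2 of 10 where 4.1% of all genes were called (2.93% higher and 1.17% lower). In all, 6 had an unadjusted p under 0.05, where 18.3% of all genes did. In I53A against WT, limma called 0 of 10 where 0.401% of all genes were called (0.291% higher and 0.111% lower). In this comparison 4 members had an unadjusted p under 0.05 (Prdm14, Esrrb, Sox2 and Klf2), all lower, where 9.78% of all genes did and 3.95% were lower. In KO against I53A, 2 of 10 were called, Tbx3 and Prdm14, both higher in KO, where 1.47% of all genes were called (1.06% higher and 0.406% lower). In all, 4 had an unadjusted p under 0.05, where 11.7% of all genes did. Both changes from WT use the same 3 WT arrays, so they are given side by side and not correlated. With 3 arrays per group the 95% confidence intervals of the log2 fold changes reached 0.47 to 0.89 to either side of the estimate. Changes over 2-fold could therefore have been missed. For Esrrb in I53A against WT, which was not called, the estimate was −1.41 and the interval −2.26 to −0.57.

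**Figure D1:**
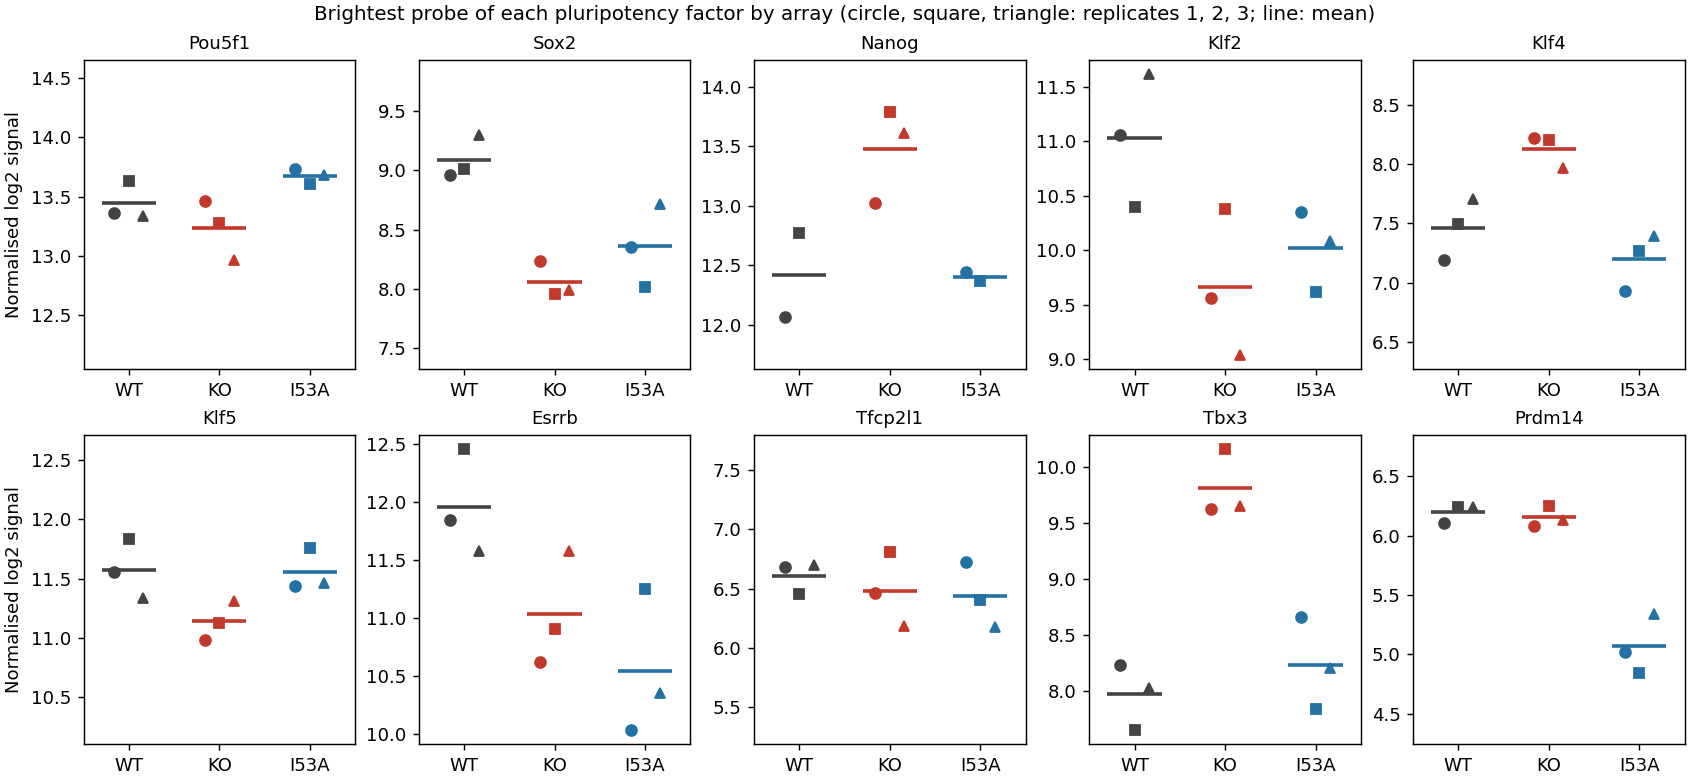
Normalised log2 signal (y axis, with its own range in each panel) of the brightest probe of the 10 factors on each array, by group (x axis), with circle, square and triangle for replicates 1, 2 and 3 and a line at the mean. The 3 KO arrays lay above all WT arrays for Tbx3 (9.62 to 10.16) and below them for Sox2 (7.96 to 8.24), and the 3 I53A arrays lay below all others for Prdm14 (4.84 to 5.34).

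Among the core factors Sox2 fell in KO, while neither Pou5f1 nor Nanog was called in any comparison. Pou5f1, the POU-domain factor without which pluripotent cells are not formed, read 13.37, 13.63 and 13.34 in WT 1 to 3, 13.46, 13.28 and 12.97 in KO and 13.73, 13.60 and 13.68 in I53A. WT overlapped with both mutants, while all 3 I53A arrays lay above all 3 KO arrays. The log2 fold changes were −0.21 in KO (95% interval −0.69 to 0.27, adjusted p = 0.684) and 0.23 in I53A (−0.25 to 0.71, adjusted p = 0.797), and KO against I53A gave −0.44 (adjusted p = 0.500).

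Sox2, the HMG-box partner of OCT4, read 8.96, 9.01 and 9.30 in WT, 8.24, 7.96 and 7.99 in KO and 8.35, 8.02 and 8.71 in I53A. Every mutant array lay below every WT array, and the mutants overlapped with each other. The fall in KO was −1.03 ± 0.24 (log2, SE, n = 3 per group, a 2.04-fold difference, adjusted p = 0.0425), just past both thresholds. I53A was −0.73 from WT (adjusted p = 0.356), and KO differed from I53A by −0.30 (95% interval −0.83 to 0.24, adjusted p = 0.741), so the lower level was not shown to be particular to the knockout. The KO difference was −1.01 within slide 1 and −1.06 within slide 2. The call was lost without any single one of the 3 WT arrays, any single one of the 3 KO arrays or I53A 1 (adjusted p = 0.061 to 0.151). It was also lost under scaling to the 75th percentile (−0.78, adjusted p = 0.222), with normexp background correction (−0.60, adjusted p = 0.278), on slide 1 alone (adjusted p = 0.163), with the replicate number as a block (adjusted p = 0.0691) and with only the 2 groups fitted (adjusted p = 0.0528). It was kept with slide and row as a block (adjusted p = 0.0361).

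Nanog, the homeodomain factor whose level fluctuates between mESCs in serum, was measured by both of its probes in the series table. The brightest gave 12.06 and 12.77 in WT 1 and 2, 13.03, 13.79 and 13.61 in KO and 12.44 and 12.37 in I53A 1 and 2, because its spots on WT 3 and I53A 3 were flagged as outliers by the scanner software and left out. The other probe gave 11.03, 11.11 and 11.05 in WT, 11.41, 12.27 and 12.58 in KO and 11.01 and 10.70 in I53A 1 and 2, with I53A 3 left out. On both probes the KO arrays lay above all WT and I53A arrays that gave a value. The log2 fold change in KO was 1.06 ± 0.34 (SE, adjusted p = 0.141) on the first and 1.02 ± 0.31 (SE, adjusted p = 0.115) on the second, neither of them called. I53A differed from WT by −0.01 on the brightest probe (95% interval −0.86 to 0.83, adjusted p = 0.995). With the flagged spots kept, WT 3 read 12.92 and I53A 3 read 12.29 on the brightest probe, and the KO arrays remained above both groups. On the other probe the flagged spot of I53A 3 read 11.68, above KO 1.

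**Figure D2:**
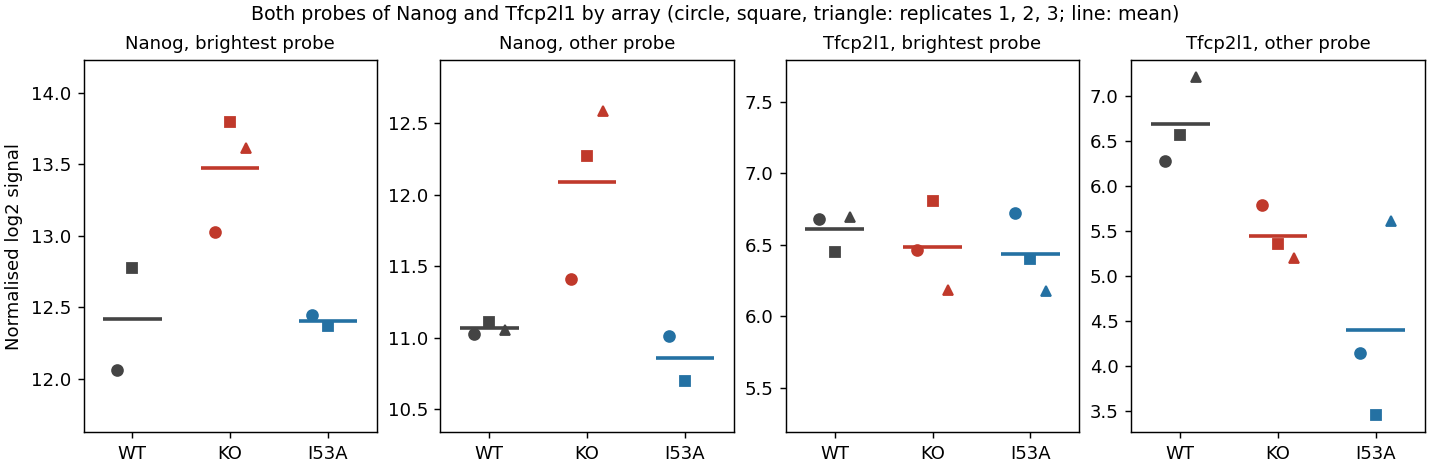
Normalised log2 signal (y axis, own range in each panel) of both probes of Nanog and of Tfcp2l1 on each array by group, with circle, square and triangle for replicates 1, 2 and 3 and a line at the mean (outlier-flagged spots are left out). Both Nanog probes were higher in KO by about the same amount (1.06 and 1.02), whereas the Tfcp2l1 probes differed, with all WT arrays above all mutant arrays on the dimmer one and overlap on the brightest.

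None of the 3 Krüppel-like factors was called, and on every KO array Klf4 was above and Klf2 and Klf5 were below WT. Klf2, the member of the trio on which mESCs shielded from differentiation signals depend most, read 11.06, 10.40 and 11.61 in WT, 9.56, 10.38 and 9.04 in KO and 10.35, 9.62 and 10.09 in I53A. All mutant arrays lay below all WT arrays, though WT 2, KO 2 and I53A 1 were within 0.1 of each other. The log2 fold change was −1.36 ± 0.40 in KO (SE, adjusted p = 0.0945) and −1.01 ± 0.40 in I53A (SE, adjusted p = 0.473). Klf2 varied most among the 10 factors, with a residual SD of 0.56 on the log2 scale, in the 94th percentile of the 6254 genes with a mean of at least 7 (median SD 0.27). When dim probes were left out, so that fewer tests were adjusted for, Klf2 in KO passed the test (adjusted p = 0.0385), as it did with slide and row as a block (adjusted p = 0.0409).

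Klf4, a target of LIF and STAT3 and one of the original reprogramming factors, read 7.19, 7.49 and 7.70 in WT, 8.22, 8.20 and 7.97 in KO and 6.93, 7.27 and 7.40 in I53A. The KO arrays lay above all others, and WT and I53A overlapped. The differences were 0.67 ± 0.23 against WT (SE, adjusted p = 0.158) and 0.93 ± 0.23 against I53A (SE, adjusted p = 0.104), and I53A was −0.26 from WT (adjusted p = 0.778). Klf5, which also acts in the inner cell mass and trophectoderm, read 11.55, 11.83 and 11.34 in WT, 10.98, 11.13 and 11.31 in KO and 11.44, 11.75 and 11.46 in I53A. KO lay below both other groups by a small margin (−0.44 against WT, adjusted p = 0.361, and −0.41 against I53A, adjusted p = 0.559), and I53A differed from WT by −0.02 (95% interval −0.52 to 0.48).

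Of the naive partners, Tbx3 was the member with the largest change. Tbx3, a T-box repressor and activator downstream of LIF that also takes part in extraembryonic endoderm development, read 8.23, 7.65 and 8.03 in WT, 9.62, 10.16 and 9.65 in KO and 8.66, 7.84 and 8.20 in I53A. The 3 KO arrays stood clear of the rest, and I53A overlapped with WT. Tbx3 rose by 1.84 ± 0.28 in KO (log2, SE, 3.58-fold, adjusted p = 0.00537) and was 1.58 ± 0.28 higher in KO than in I53A (SE, 2.98-fold, adjusted p = 0.0270), while I53A differed from WT by 0.26 (95% interval −0.37 to 0.89, adjusted p = 0.829). The change from WT was 1.96 within slide 1 and 1.60 within slide 2. It was called with each of the 9 arrays left out in turn (adjusted p = 0.00598 to 0.0253), but not with normexp background correction (1.34, adjusted p = 0.335) or on slide 1 alone (adjusted p = 0.0884). The difference from I53A was no longer called without KO 1, KO 2, KO 3, I53A 2 or I53A 3 (adjusted p = 0.0571 to 0.108). It was also not called with normexp (adjusted p = 0.439), on slide 1 alone (adjusted p = 0.174), with the replicate number as a block (adjusted p = 0.0751) or with only the 2 groups fitted (adjusted p = 0.0712). It was kept with slide and row as a block (adjusted p = 0.0164).

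Prdm14, the PR-domain factor that represses FGF signalling and DNA methyltransferase genes, read 6.11, 6.24 and 6.24 in WT, 6.08, 6.25 and 6.13 in KO and 5.02, 4.84 and 5.34 in I53A. All 3 I53A arrays lay below every WT and KO array, which overlapped within a narrow band. Prdm14 was 1.09 ± 0.21 higher in KO than in I53A (log2, SE, 2.13-fold, adjusted p = 0.0383), whereas I53A against WT gave −1.13 ± 0.21 (SE, 2.19-fold, adjusted p = 0.0682), outside the threshold, and KO against WT gave −0.04 (95% interval −0.51 to 0.43, adjusted p = 0.956). The residual SD of 0.16 was the lowest of the 10 factors. The difference between the mutants was 1.26 within slide 1 and 0.74 within slide 2. It was no longer called without any single one of the arrays other than I53A 3 (adjusted p = 0.0675 to 0.143). It was also lost under 75th percentile scaling (adjusted p = 0.0723), with normexp background correction (0.45, adjusted p = 0.0904), with slide (adjusted p = 0.0513), slide and row (adjusted p = 0.0693) or replicate number (adjusted p = 0.0958) as a block, on slide 1 alone (adjusted p = 0.132) and with only the 2 groups fitted (adjusted p = 0.133). In I53A against WT it was called with dim probes left out (adjusted p = 0.0154) and with the probes of each gene averaged (adjusted p = 0.0369). Both settings left the values of its only probe unchanged and adjusted for fewer tests.

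Esrrb, the nuclear receptor that can stand in for Nanog, read 11.84, 12.45 and 11.58 in WT, 10.62, 10.91 and 11.58 in KO and 10.04, 11.25 and 10.35 in I53A. Every I53A array lay below every WT array, and KO 3 reached the level of WT 3. The log2 fold changes were −0.92 ± 0.38 in KO (SE, adjusted p = 0.238) and −1.41 ± 0.38 in I53A (SE, adjusted p = 0.213), with a residual SD of 0.53, in the 91st percentile. Its other probe, designed on a different transcript, was not well above background on any of the 9 arrays.

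Tfcp2l1, a target of LIF and STAT3, was read differently by its probes. The brightest gave 6.68, 6.45 and 6.70 in WT, 6.46, 6.80 and 6.19 in KO and 6.72, 6.40 and 6.18 in I53A, with overlap of all groups and log2 fold changes of −0.13 (adjusted p = 0.852) and −0.18 (adjusted p = 0.883). The other gave 6.28, 6.57 and 7.21 in WT, 5.79, 5.35 and 5.20 in KO and 4.14, 3.45 and 5.61 in I53A. On this dimmer probe, which was well above background on 3 WT arrays but on 1 KO and 1 I53A array, all mutant arrays lay below WT, by −1.24 ± 0.49 in KO (SE, adjusted p = 0.214) and −2.29 ± 0.49 in I53A (SE, adjusted p = 0.106). What part of the transcript each probe reads was not determined.

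**Figure D3:**
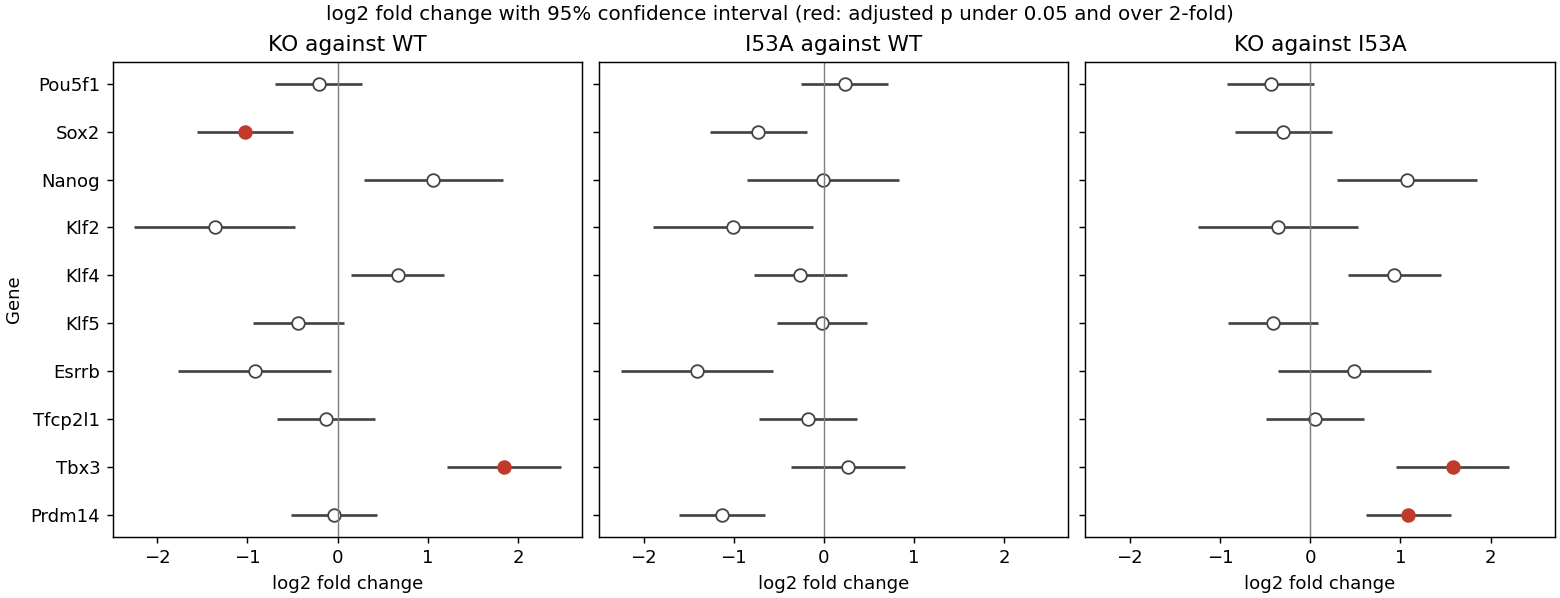
log2 fold change (x axis) of the brightest probe of each factor (y axis) in the 3 comparisons, with 95% confidence intervals, red where called and open where not. In KO against WT the factors spread from −1.36 (Klf2) to 1.84 (Tbx3), and in I53A against WT 8 of 10 lay below 0, down to −1.41 (Esrrb).

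Read as a group, the factors shifted little at the median. The median log2 fold change of the 10 was −0.17 in KO against WT, with 3 above 0 and 7 below, beside −0.02 over all genes, and −0.22 in I53A against WT, with 2 above and 8 below, beside −0.01 over all genes. In KO the WT and mutant arrays did not overlap for 6 members, 3 higher (Nanog, Klf4, Tbx3) and 3 lower (Sox2, Klf2, Klf5), where 25.7% of all genes did not overlap (12.2% higher and 13.5% lower). In I53A they did not overlap for 4 members, all lower (Sox2, Klf2, Esrrb, Prdm14), where 18.4% of all genes did not overlap (8.73% higher and 9.7% lower).

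The genes whose levels followed the called members most closely over the 9 arrays, among genes with a mean log2 signal of at least 7, are given as a description. For Sox2 they were Xrcc5 (Pearson's r = 0.97), a DNA end-binding protein, Atp6v1e1 (0.97), a subunit of the vacuolar proton pump, and Nelfb (0.96), a subunit of a factor that pauses RNA polymerase II. For Tbx3 they were Glrx (0.97), a glutaredoxin, Gm4567 (0.97) and Acaa2 (0.96), a mitochondrial enzyme of fatty acid oxidation. For Prdm14 they were Phf11d (0.97), Pfkp (0.96), a phosphofructokinase, and Pecam1 (0.95), an adhesion molecule present on naive mESCs. Pecam1 read 8.51, 8.58 and 8.55 in WT, 8.52, 8.48 and 8.76 in KO and 7.49, 7.58 and 7.53 in I53A, so it had the same separation of I53A from the other groups as Prdm14. The 9 points of each correlation share the 3 group means.

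The inputs that maintain the factors were followed with 3 lists. Of 10 genes of the LIF and STAT3 pathway, 0 were called by limma in any comparison. At an unadjusted p under 0.05 there were 1 in KO against WT, 3 in I53A against WT and 1 in KO against I53A. Over all genes the shares were 18.3%, 9.78% and 11.7%. Of the 3 in I53A 1 was higher and 2 were lower, and the list ran from −0.85 (Pim1) to 0.60 (Gbx2). The brightest genes of the pathway, the feedback inhibitor Socs3 and the kinase Pim3, differed in KO by 0.31 (adjusted p = 0.647) and −0.49 (adjusted p = 0.442). Genes on chromosome 11, where Socs3 lies, had a median of 0.22 in KO against WT beside −0.04 for all other genes, and the part of this in the Socs3 value was not tested. Of 12 WNT and BMP genes only Id2, an inhibitor of bHLH factors induced by BMP, was called, lower in KO than in WT (−1.46, adjusted p = 0.00438) and than in I53A (−1.62, adjusted p = 0.00606). Of 12 FGF and ERK genes, the feedback inhibitor Spry2 fell in KO (−1.03, adjusted p = 0.0175), and the ERK phosphatase Dusp6 was lower in KO than in I53A (−1.34, adjusted p = 0.0273). Dusp6 averaged 9.89 in WT, 9.58 in KO and 10.92 in I53A, with all I53A arrays above all WT arrays. It was not called against WT in either mutant.

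Of the 18 measured ES cell state genes, 17 were well above background on all 9 arrays. Among them Dppa3, a germline and naive-state gene, rose in KO (1.31, adjusted p = 0.0286) and Dppa4, a chromatin-associated pluripotency gene, fell (−1.17, adjusted p = 0.0302, and −1.22 against I53A, adjusted p = 0.0488), while Fbxo15 was higher in KO than in I53A (1.32, adjusted p = 0.0208). Among 19 measured paralogues of the factors, Klf3, a repressor of the KLF family, fell in KO (−1.69, adjusted p = 0.00128, and −1.05 against I53A, adjusted p = 0.0330). Prdm2 rose in KO by an estimated 3.53-fold (adjusted p = 0.00916), from a level not well above background on any WT array.

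Genes of the formative and primed epiblast, the state that follows naive pluripotency, had a positive log2 fold change for 11 of 11 measured in I53A against WT, though 10 of them were not called. Of the 11, 6 were well above background on all 9 arrays, and Dnmt3a (0.02) was on none. Among the 10 factors, every I53A array lay below every WT array for 4 (Prdm14, Esrrb, Klf2 and Sox2), where 9.7% of all genes did. On their brightest probes Pou5f1, Nanog, Klf4, Klf5, Tfcp2l1 and Tbx3 overlapped with WT. In KO, 3 factors lay below WT (Sox2, Klf2 and Klf5) and 3 above (Nanog, Klf4 and Tbx3), where 13.5% and 12.2% of all genes did. The 1 called formative gene in I53A compares with 0.291% of all genes called higher. Of the 11 formative genes, 9 were higher at an unadjusted p under 0.05, where 5.83% of all genes were. In KO against WT 9 of the 11 had a positive log2 fold change. The median was 0.83 in I53A and 0.17 in KO. Sall2, a zinc-finger factor of the epiblast, rose by at least 6.02-fold in I53A (adjusted p = 0.00549), being not well above background on any WT array. It was also called in KO (adjusted p = 0.0231), where it was not well above background on any array, so no fold is given. Fgf5, the standard marker of the primed epiblast, was not well above background in WT or KO and read 6.09, 5.77 and 6.64 in I53A. Estimated against those dim signals, Fgf5 in I53A was 3.46-fold above KO (adjusted p = 0.0235) and 3.45-fold above WT (adjusted p = 0.0510, not called). Pou3f1, a POU factor of the epiblast, read 6.72, 7.66 and 6.64 in WT and 9.15, 9.20 and 8.69 in I53A (2.01, adjusted p = 0.0595, not called). The summed level of the list (log2) was 12.42 to 12.61 in WT, 12.57 to 12.95 in KO and 13.23 to 13.34 in I53A. This sum is weighted towards Dnmt3b, the brightest gene of the list, which was not called in any comparison. The part of these genes in the levels of the factors was not tested.

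Some primitive endoderm markers rose in KO, the group with the highest mean Tbx3 and Nanog. Of 9 markers 4 were called higher in KO against WT, where 2.93% of all genes were called higher, and 0 in I53A against WT by limma (3 at an unadjusted p under 0.05). Col4a1, a basement membrane collagen, rose by 2.62 (adjusted p = 0.000654), and Gata6, a defining factor of the lineage, rose by 2.09 (adjusted p = 0.00651) from a level well above background on 1 of 3 WT arrays to 3 of 3 in KO. Gata4 and Sox17 rose by at least 1.83-fold (adjusted p = 0.00651) and at least 2.20-fold (adjusted p = 0.00899), being well above background on 2 and 1 of the KO arrays and on no WT array. Lama1 was called only between KO and I53A (2.14, adjusted p = 0.0181). The defining markers Pdgfra, Foxa2, Sox7 and Dab2 were not well above background on any array. The summed level of the list (log2) was 8.29 to 8.96 in WT, 9.79 to 10.67 in KO and 8.39 to 8.59 in I53A, a sum weighted towards its brightest genes, Lama1 and Col4a1, the first of which was not called against WT. Its part in the Tbx3 and Nanog levels was not tested.

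Among 10 trophoblast markers Eomes rose in KO (1.14, adjusted p = 0.0458). It averaged 7.20 in I53A, where it was not called, beside 7.42 in KO and 6.27 in WT. Of the other markers 3 lay below WT in KO with an unadjusted p under 0.05. The summed level of the trophoblast list (log2) was 13.33 to 13.48 in WT, 12.71 to 12.77 in KO and 13.52 to 13.83 in I53A. This sum is weighted towards its brightest genes, Krt18 and Krt8, neither of which was called in any comparison. Among 8 fibroblast markers Thy1 rose in KO (1.31, adjusted p = 0.0156). Thy1 averaged 8.20 in I53A, where it was not called, beside 8.23 in KO and 6.92 in WT. Of the 8 markers 6 were below 0 in KO against WT, 3 of them with an unadjusted p under 0.05. The median of the 8 in KO was −0.48. Among 6 neural markers Nes rose by at least 5.07-fold in KO (adjusted p = 0.00151) and at least 5.26-fold in I53A (adjusted p = 0.00884), Neurod1 rose in I53A (1.45, adjusted p = 0.0222) and was lower in KO than in I53A (−2.20, adjusted p = 0.00101), and Neurog1 rose in KO by at least 2.11-fold (adjusted p = 0.0343, well above background on 1 KO array). Of 6 mesoderm markers 0 were called by limma, with 0 at an unadjusted p under 0.05, and 4 were not well above background on any array. The brightest of them, Kdr and T, differed in KO by 0.08 (adjusted p = 0.926) and 0.19 (adjusted p = 0.880). Of 4 measured genes of the 2-cell stage, a state that a few mESCs enter at any time, Zscan4a rose in KO by 4.75 (log2, adjusted p = 0.00278), from a level well above background on 1 of 3 WT arrays. Its mean was 6.65 in I53A, where it was not called, beside 8.78 in KO and 4.03 in WT.

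**Figure D4:**
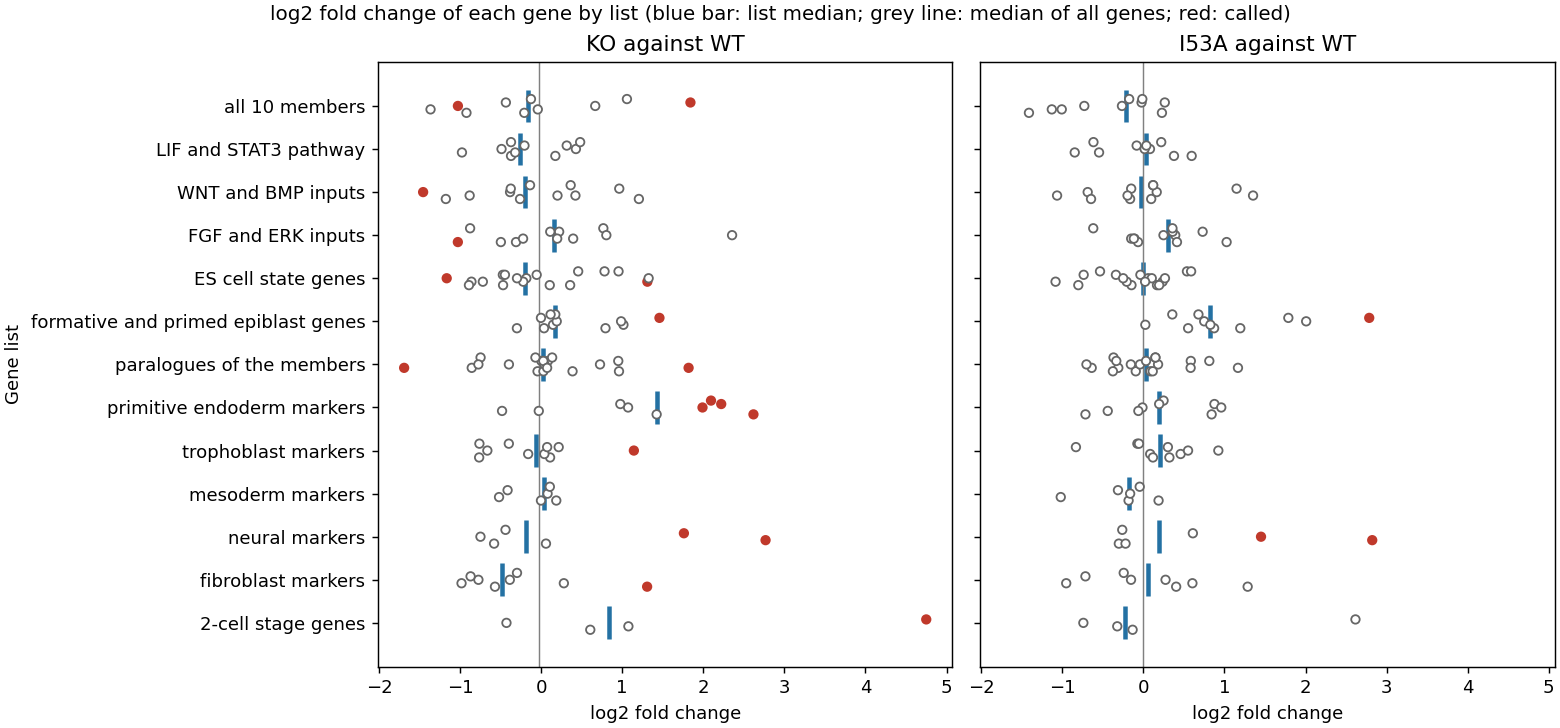
log2 fold change (x axis) of each measured gene of each list (y axis; 1 point per gene, vertical scatter has no meaning) in KO and in I53A against WT, with the list median as a blue bar, the median of all genes as a grey line and called genes in red. The formative genes lay at a median of 0.83 in I53A and 0.17 in KO, and the primitive endoderm markers at 1.42 in KO and 0.19 in I53A.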

How the data were processed

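The authors scanned single-colour arrays and extracted spots with Agilent Feature Extraction 11.5.1.1. The deposited scan files give, per spot, a background-subtracted processed signal (fluorescence intensity, linear scale) with flags. The deposited series table gives log2 values that the authors averaged over repeated probes and quantile normalised, for 30170 probes. Its fold-change and p-value columns hold the authors' own limma comparisons and were not used. Here, control and outlier-flagged spots were left out, log2 processed signals of the same probe were averaged and quantile normalised over 55681 probes, and the 30170 probes were fitted with limma 3.58.1 in R 4.3.3 (lmFit, eBayes, 1 mean per group, all 9 arrays). P-values are two-sided. Of these probes, 26851 have 1 gene symbol, 97 several and 3222 none, after old symbols were updated through RefSeq accessions, and only the first were named. The number of arrays limits the precision. The script was tested on simulated data.

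A floor ("at least") sets the brighter mean against the higher of the dim probe's own signal and the lowest signal of any probe well above background on that array. For Prdm2 and Fgf5 the dim probe's own signal was the higher, so the plain fold is given. Named were all 10 members, from each of the other 12 lists every called gene or otherwise the 2 brightest, and for each called member the 3 genes most like it. A few other list genes (Pou3f1, Dnmt3a, Dnmt3b, Krt8, Krt18, Pim1, Gbx2, and the endoderm markers at background) were chosen after their values were seen. The members and lists were chosen with earlier results of these data known. Alternatives tried were scaling to the 75th percentile, normexp background correction (offset 50, on the median signal, the deposited files holding no mean signal column), the deposited log2 values, dim probes left out, slide or replicate number as a block, slide 1 alone, only the groups compared, the mean of a gene's probes, adjusted p alone, each array left out, and, chosen after seeing the data, outlier-flagged spots kept and slide and row as a block.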

Additional observations from a re-analysis of the deposited data

Results flagged for a closer look

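The changes of the 2 mutants from WT differed for 2 of the 10 factors by the direct test of KO against I53A, where 1.47% of all genes were called. For Tbx3 the difference was 1.58 on the log2 scale (adjusted p = 0.0270), and for Prdm14 it was 1.09 (adjusted p = 0.0383). Both calls were lost with normexp correction, on slide 1 alone, with the replicate number as a block and with only the 2 groups fitted. With slide and row as a block Tbx3 was still called (adjusted p = 0.0164) and Prdm14 was not (adjusted p = 0.0693). With each array left out in turn, Tbx3 was called in 4 of 9 runs and Prdm14 in 1 of 9.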

How the results depend on the processing

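The count of called factors was 2 in KO against WT. It was 1 under 75th percentile scaling, with the replicate block and with only the 2 groups fitted, and 0 with normexp correction and on slide 1 alone. It stayed within 1.5 times of 2 with the deposited values, dim probes left out (3), slide as a block, slide and row as a block (3, with Klf2 added), the mean of all probes, adjusted p alone and outlier-flagged spots kept. In KO against I53A the count of 2 became 1 under 75th percentile scaling (Tbx3), with slide as a block (Tbx3) and with slide and row as a block (Tbx3), and 0 with normexp correction, on slide 1 alone, with the replicate block and with only the 2 groups fitted. In I53A against WT the count of 0 became 1 with dim probes left out and with the mean of all probes (Prdm14 in both). With each array left out in turn the counts were 1 to 2 in KO against WT, 0 in I53A against WT and 0 to 1 in KO against I53A. Fewer arrays, fewer tests or a shared spread from fewer groups enter the slide 1, dim-probe, mean-of-probes and 2-group settings by construction. The cause of the other changes was not tested.

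The replicate numbers were not taken to pair the samples, since correlations of same-numbered arrays' deviations ran from −0.31 to 0.38 and 4 of 9 were above 0, while arrays sharing slide and row ran from 0.13 to 0.43. The replicate block therefore puts KO arrays with arrays of other rows, and the cause of its lost calls was not tested. Values not called crossed 0 in 14 instances. In I53A against WT normexp gave −0.045 for Pou5f1, 0.18 for Klf5 and −0.14 for Tbx3, and the mean of all probes gave 0.12 for Nanog. Slide 1 alone gave 0.019 for Prdm14 in KO against WT and −0.066 for Tfcp2l1 in KO against I53A. With an array left out, I53A against WT ran from −0.37 to 0.34 for Nanog and from −0.14 to 0.11 for Klf5, and Tfcp2l1 ran from −0.29 to 0.023 in KO against WT and from −0.11 to 0.20 in KO against I53A. No call reversed in these alternatives. Precision is limited by 3 arrays per group and by signal near background for Prdm14 and the dimmer Tfcp2l1 probe.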

Other observations

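A further Nanog probe was on the arrays but not in the series table. It read 5.23, 4.92 and 4.66 in WT, 4.38, 3.31 and 4.12 in KO and 3.94, 5.02 and 5.26 in I53A on the log2 scale, and was well above background on 3 of the 9 arrays. On this dim probe all KO arrays lay below all WT arrays, the opposite of the Nanog probes in the series table.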
